A study of Mus musculus with 8 samples.

Results

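The nuclear genes of the mitochondrial respiratory chain and of ATP synthase were followed across dendritic cells (DC) that had or had not met lipopolysaccharide (LPS), with and without the microRNA miR-155. Members were every non-control probe whose gene name on the array began with Nduf, Uqcr, Cox4, Cox5, Cox6, Cox7, Cox8 or Atp5, or was Sdha, Sdhb, Sdhc or Sdhd. The rule read names only and no measured value. It took 128 of the 41174 probes and 89 of the 27398 gene names, and 119 probes of 85 genes were bright enough to be tested. By name, the 85 tested genes were 37 of complex I, 4 of complex II, 8 of complex III, 14 of complex IV, 15 of complex V and 7 that encode no subunit.

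All cells came from the bone marrow of male C57BL/6Jax mice and were cultured for 7 days with 40 ng/mL of GM-CSF, a growth factor that yields DC from marrow. The groups were miR-155 knockout (KO) cells given 100 ng/mL LPS for 16 h, KO cells left unstimulated, wild-type (WT) cells given the same LPS, and WT cells left unstimulated, with 2 single-colour arrays each. LPS-treated DC were sorted as CD86-positive and unstimulated DC as CD86-negative, so every LPS comparison also compares these 2 gates. Nothing in the labels ties a replicate to an animal or culture of its own, so p-values measure only the spread between these arrays.

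Electrons from NADH enter the chain at complex I and those from succinate at complex II. They pass through ubiquinone, complex III and cytochrome c to complex IV, which reduces oxygen, and the proton gradient built on the way drives ATP synthase, complex V. DC grown with GM-CSF are known to turn to glycolysis after LPS and to lose oxygen consumption as nitric oxide accumulates. The subunits encoded in mitochondrial DNA were not analysed here, and neither was miR-155 itself.

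Between 50.8% and 58.3% of spots on an array were well above background and 0 were saturated. All 85 genes were well above background on all 8 arrays. Arrays were scaled by subtracting each array's 75th percentile on the log2 scale, so a scaled log2 signal of 0 is that percentile. Cd86, the sort marker, was higher after LPS by 3.88 in KO and 3.85 in WT cells, on the log2 scale. On slide 1 were KO unstimulated replicate 2, WT LPS replicate 2 and all WT unstimulated arrays, with the other 4 on slide 2, so slides and groups were only partly balanced. In the KO unstimulated group 28 of the 85 genes had replicates more than 0.5 log2 units apart, against 3 in KO LPS, 9 in WT LPS and 18 in WT unstimulated cells.

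Promoters of many respiratory chain genes are known to carry sites for NRF1, a transcription factor of mitochondrial biogenesis. RefSeq promoter windows of GRCm38.p6, 250 bases before to 50 bases after the start of the gene, were found for 74 of the 89 members. The NRF1 letters searched were GCGCA, any 1 base, then GCGC, on both strands. They stood in 17 of these 74 windows (23.0%), against 4.78% of the windows of all 27025 genes. The letters CCGGAAG, bound by ETS factors such as GABP, stood in 21.6% of member windows and 9.12% of all windows, and AAGATGGCG, bound by YY1, in 9.46% and 1.49%. CCAAT, bound by NF-Y, was nearly as frequent in all windows (37.9%) as in member windows (45.9%), and the longer GATTGGCT, which holds CCAAT on its other strand, stood in 4.05% of member windows and 4.04% of all. TATAAA, the TATA box, stood in 9.46% of member windows and 14.2% of all. Among the 17492 protein-coding genes with a window the shares were 6.6% for the NRF1 letters, 11.9% for CCGGAAG, 1.94% for AAGATGGCG, 39.0% for CCAAT, 4.9% for GATTGGCT and 13.3% for TATAAA. A match is a run of letters and was not shown to be a bound site.

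Of the 13 genes called lower after LPS in at least 1 genotype, 4 had the NRF1 letters (30.8%), against 13 of the 61 other members with a window (21.3%). The split ran the other way for CCAAT (15.4% against 52.5%), CCGGAAG (15.4% against 23.0%), AAGATGGCG and TATAAA (7.69% against 9.84% each). These 4 are shown because they join a promoter motif of the pathway with a measured change, and Ndufb5 because it had the lowest LPS response of all members in both genotypes. Each stretch runs from 120 bases before to 30 bases after the start, 5′ to 3′ on the strand of the gene, with the NRF1 letters of either strand in capitals.
Atp5g2, chr15:102671018-102671167, minus strand: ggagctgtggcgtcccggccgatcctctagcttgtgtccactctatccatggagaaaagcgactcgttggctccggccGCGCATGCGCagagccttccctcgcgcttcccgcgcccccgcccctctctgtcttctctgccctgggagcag
Atp5k, chr5:108434370-108434519, minus strand: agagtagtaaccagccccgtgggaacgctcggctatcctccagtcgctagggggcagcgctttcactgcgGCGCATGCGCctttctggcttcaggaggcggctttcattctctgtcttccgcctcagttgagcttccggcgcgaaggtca
Atp5o, chr16:91931601-91931750, minus strand: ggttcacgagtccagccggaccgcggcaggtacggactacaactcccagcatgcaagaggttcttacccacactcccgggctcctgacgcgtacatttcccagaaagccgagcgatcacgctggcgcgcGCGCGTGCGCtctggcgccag
Uqcrc1, chr9:108936528-108936677, plus strand: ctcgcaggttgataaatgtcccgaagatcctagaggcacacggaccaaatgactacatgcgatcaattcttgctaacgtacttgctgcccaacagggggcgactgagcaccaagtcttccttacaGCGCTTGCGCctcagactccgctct
Ndufb5, chr3:32736943-32737092, plus strand: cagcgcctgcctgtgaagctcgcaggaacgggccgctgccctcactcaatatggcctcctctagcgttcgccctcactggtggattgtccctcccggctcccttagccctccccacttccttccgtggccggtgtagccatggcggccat
In Atp5g2 and Atp5k the letters began 42 and 50 bases before the start. In Atp5o they began at base 10 after it, and in Uqcrc1 at bases 6 and 31, the second beyond the stretch shown. The Ndufb5 window held none of them, which says nothing of binding.

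The question of the LPS comparisons is how stimulation changes the chain in each genotype. No member was called higher after LPS, and the members called lower were, by name, a small share of complexes I, III and V. In KO cells 0 of the 85 genes were called higher, where 10.4% of all genes were, and 9 were called lower (10.6%), where 10.5% of all genes were, by limma with Benjamini-Hochberg adjustment over all genes. In WT cells 0 were called higher, against 9.48% of all genes, and 12 were called lower (14.1%), against 10.7% of all genes. With this scaling the shares called lower were near the background, but they depended on the normalization. With normexp background correction and quantile normalization 28 of 85 members were called lower in KO cells and 31 in WT cells, where 10.9% and 10.5% of all genes were, and with quantile normalization alone 15 and 18, where 11.7% and 11.3% were. The direction of the signals was less even than the calls. The fitted change was below 0 for 71 members in KO and 78 in WT cells (83.5% and 91.8%), against 47.6% and 49.9% of all genes. The median member changed by −0.52 in KO and −0.61 in WT cells, where the median over all genes was 0.05 and 0.001. Both LPS arrays lay below both unstimulated arrays for 54 members in KO cells (63.5%), against 30.4% of all genes, and for 67 in WT cells (78.8%), against 32% of all genes. In bulk samples such as these, fewer cells of a type and less RNA per cell cannot be told apart.

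**Figure D1:**
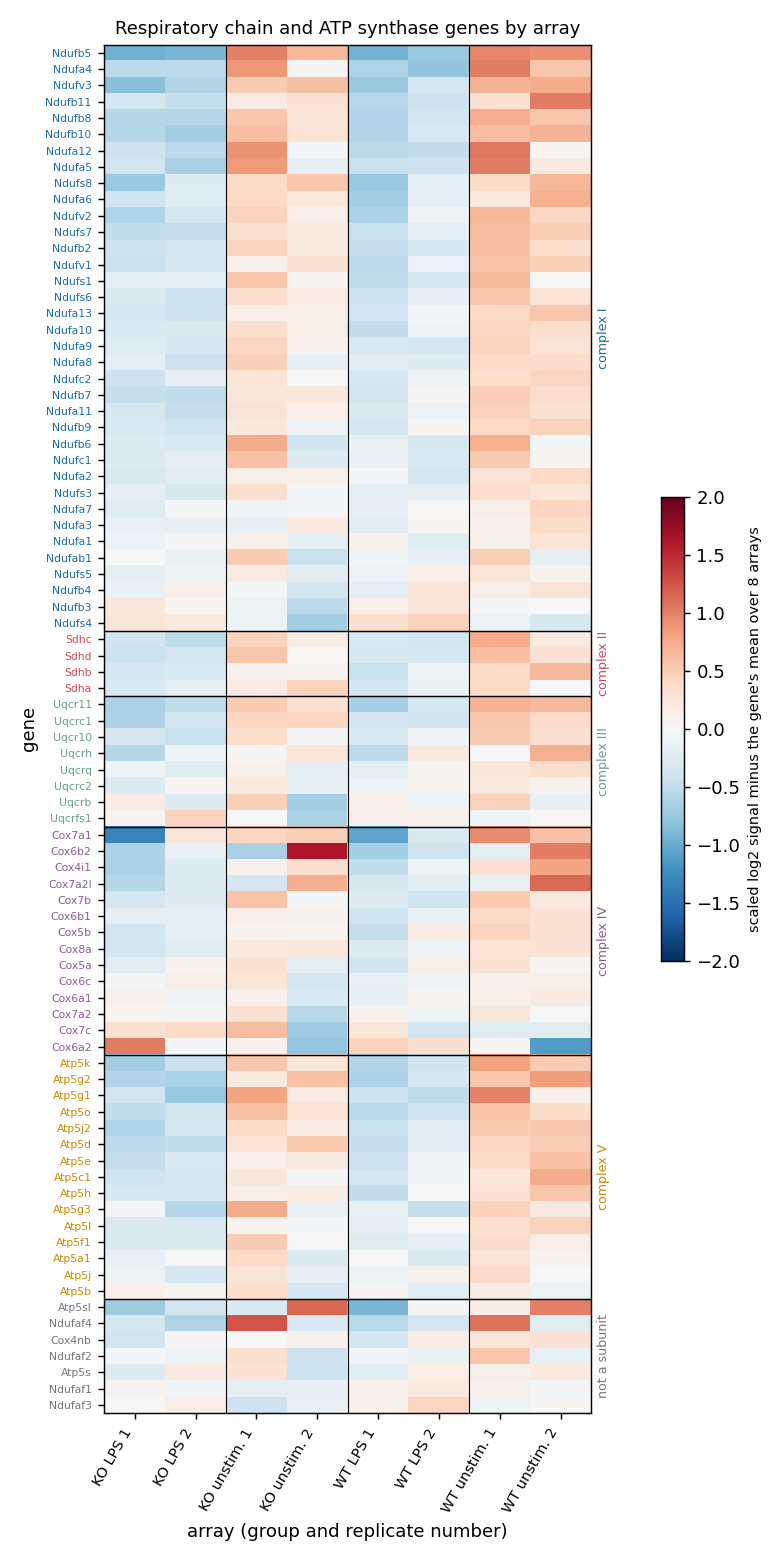
Scaled log2 signal of the tested genes reported here (down, ordered by complex) on each of the 8 arrays (across, by group and replicate number), as the difference from the gene's own mean over the arrays. Most genes are lower on the 4 LPS arrays than on the 4 unstimulated arrays, and KO unstimulated replicate 2 is nearer to the LPS arrays than the other unstimulated arrays are.

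The 8 genes called lower in both genotypes were Ndufb5, Ndufb8, Ndufb10, Ndufv3, Uqcr11, Uqcrc1, Atp5g2 and Atp5k, which is 88.9% of the KO calls and 66.7% of the WT calls. Atp5d was called in KO cells, and Ndufa4, Ndufb11, Ndufs7 and Atp5o in WT cells. A call in 1 genotype does not show a difference between genotypes. The calls rested on few arrays: with each array left out in turn the number called lower was 1 to 5 in KO and 1 to 8 in WT cells, where 4.11% to 9.77% and 4.54% to 9.51% of all genes were. A group that lost an array had a lone sample, assumed to vary like the other groups. In KO cells it was 1 without either KO LPS array or either KO unstimulated array, 2 without either WT LPS array and 5 without either WT unstimulated array. In WT cells it was 4 without KO LPS replicate 1, 5 without KO LPS replicate 2, 8 without either KO unstimulated array, 1 without WT LPS replicate 1, 2 without WT LPS replicate 2 and 2 without either WT unstimulated array. With slide as a fixed block 2 genes stayed called in each genotype, Ndufb5 and Ndufv3 in KO and Ndufb5 and Ndufa4 in WT cells, where 7.03% and 7.05% of all genes were called lower. Within a single slide 1 group of each comparison had a lone array, and the median member was at −0.55 in KO cells on slide 2 and −0.53 in WT cells on slide 1. The call was lost whichever array was left out for Uqcr11, Atp5d, Atp5g2 and Atp5k in KO cells and for Uqcrc1, Ndufs7 and Atp5o in WT cells.

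**Figure D2:**
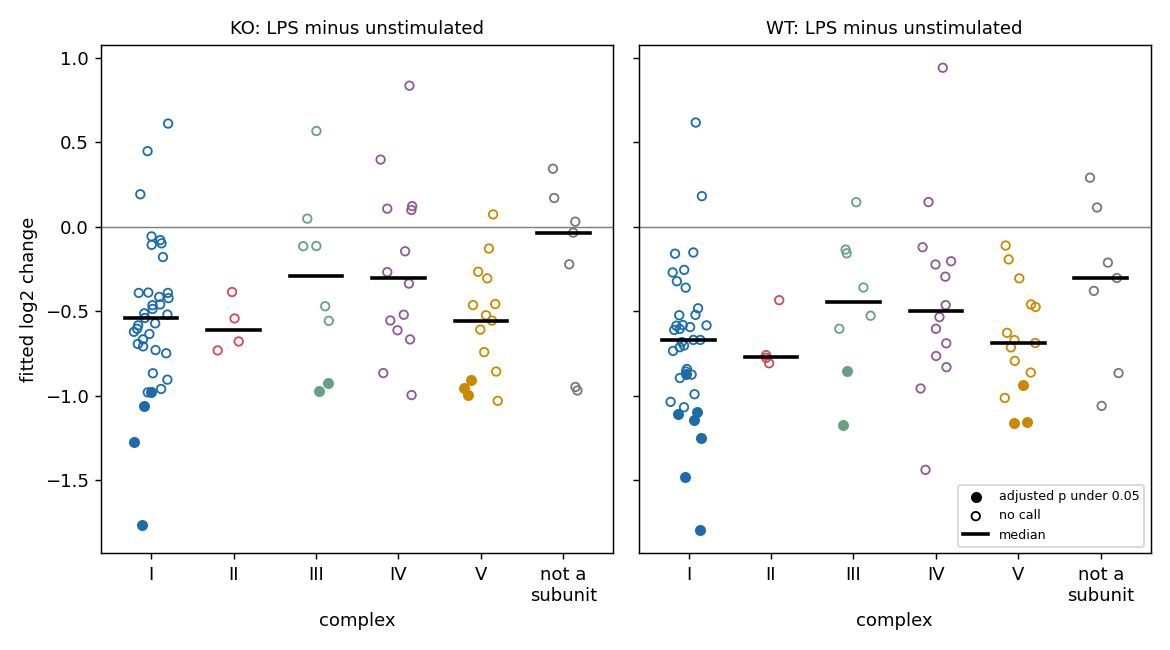
Fitted log2 change after LPS of each tested gene in KO cells (left) and WT cells (right), by complex. Filled points have an adjusted p under 0.05, open points have no call, and bars are medians. Every complex has its median below 0 in both genotypes, and all filled points are below 0 and belong by name to complexes I, III and V. Ndufa4 is plotted with complex I.

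Complex I, the NADH dehydrogenase, held by name 4 of the 9 calls in KO and 7 of the 12 in WT cells, Ndufa4 among the WT calls. Counts by complex or gene family stand beside 10.5% of all genes called lower in KO and 10.7% in WT cells. In KO cells 4 of its 37 genes were called lower and 34 were fitted below 0, with a median of −0.54, and in WT cells 7 were called lower and 35 were fitted below 0, with a median of −0.67. Ndufb5, an accessory subunit of the membrane arm, fell furthest. Its scaled log2 signal was −0.09 and −0.04 in KO LPS cells, against 1.88 and 1.52 in KO unstimulated cells, and −0.07 and 0.13 in WT LPS cells, against 1.85 and 1.79 in WT unstimulated cells. All 4 LPS arrays stood well below all 4 unstimulated arrays. The change was −1.76 ± 0.25 in KO cells (SE, limma adjusted p = 0.00444) and −1.79 ± 0.25 in WT cells (SE, limma adjusted p = 0.00459). Its call held with each of the 8 arrays left out, and in 21 of 22 alternative settings in each genotype.

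Accessory subunits of the membrane arm with names in Ndufb were called lower for 3 of 10 genes in KO and 4 of 10 in WT cells. Ndufb8 had 5.33 on both KO LPS arrays, against 6.45 and 6.16 in KO unstimulated cells, and 5.32 and 5.53 in WT LPS cells, against 6.62 and 6.44 in WT unstimulated cells. The groups did not overlap in either genotype, and both of its probes were called in both genotypes. The gene fell by 0.98 in KO cells (limma adjusted p = 0.0353) and by 1.11 in WT cells (0.0238). Ndufb10 fell by 1.06 in KO cells (limma adjusted p = 0.029) and by 1.09 in WT cells (0.0269). Ndufb11, another membrane arm subunit, had 5.26 and 5.16 in KO LPS cells, against 5.79 and 5.91 in KO unstimulated cells, and 5.07 and 5.20 in WT LPS cells, against 5.91 and 6.65 in WT unstimulated cells. Its groups did not overlap in either genotype, and the change was −0.63 in KO cells (limma adjusted p = 0.198) and −1.14 in WT cells (0.0422).

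Ndufv3, an accessory subunit at the NADH-oxidising end of complex I, had 1.81 and 2.04 in KO LPS cells, against 3.15 and 3.24 in KO unstimulated cells, and 1.91 and 2.32 in WT LPS cells, against 3.33 and 3.39 in WT unstimulated cells. It fell by 1.27 in KO cells (limma adjusted p = 0.0166) and by 1.25 in WT cells (0.0184), again with no overlap. Its 3 probes on chromosome 17 did not give the same size. The first 30 bases of each 60-base probe are shown, since the probe decides the call, with positions in build mm9 as the files write them, all on the plus strand.
Ndufv3 probe at chr17:31658570-31658629: gtctacagagtcagagaagagtgcaaagga
Ndufv3 probe at chr17:31664691-31664750: agtttctgcaaaagagaaggccaaggtcca
Ndufv3 probe at chr17:31665148-31665207: gtgccagaaggaggctcccaggtccaggag
The first, which was the brightest and so stood for the gene, carried the call. The second changed by −0.65 in KO and −0.86 in WT cells and the third by −0.52 and −0.74, with no call.

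Ndufa4, named as a complex I gene and since assigned to complex IV, had 2.67 and 2.69 in KO LPS cells, against 4.08 and 3.24 in KO unstimulated cells, and 2.61 and 2.42 in WT LPS cells, against 4.23 and 3.75 in WT unstimulated cells. The change was −0.98 in KO cells (limma adjusted p = 0.0961) and −1.48 ± 0.35 in WT cells (SE, limma adjusted p = 0.028), with no overlap in either. Of the 14 Ndufa genes, Ndufa4 was the only one called, in WT cells. The related Ndufa4l2 was not analysed here.

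The 7 core subunits, which carry the flavin and the iron-sulphur clusters, gave 0 calls in KO and 1 in WT cells, with medians of −0.67 and −0.84. That call was Ndufs7, which bears the last iron-sulphur cluster before ubiquinone. It had 4.62 and 4.63 in KO LPS cells, against 5.41 and 5.29 in KO unstimulated cells, and 4.67 and 4.93 in WT LPS cells, against 5.73 and 5.61 in WT unstimulated cells. The change was −0.73 in KO cells (limma adjusted p = 0.078) and −0.87 in WT cells (0.0462), with no overlap in either. The others described here had no call. Ndufs8, which carries 2 clusters on the path to ubiquinone, changed by −0.96 in KO and −0.99 in WT cells, and the NADH-binding Ndufv1 by −0.57 and −0.84. Its partner Ndufv2 changed by −0.75 in KO and −0.87 in WT cells, and the large iron-sulphur subunit Ndufs1 by −0.49 and −0.73. Ndufs3, another subunit of the matrix arm, changed by −0.39 in KO and −0.48 in WT cells.

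Ndufs4, an accessory subunit whose loss in mice gives a Leigh-like brain disease, had the highest fitted LPS response of complex I. It had 4.40 and 4.34 in KO LPS cells, against 4.04 and 3.47 in KO unstimulated cells, and 4.48 and 4.62 in WT LPS cells, against 4.03 and 3.83 in WT unstimulated cells. Its LPS arrays lay above its unstimulated arrays in both genotypes. The change was 0.61 in KO cells (limma adjusted p = 0.179) and 0.62 in WT cells (0.173), so it was not called. Ndufb3 was the other complex I gene fitted above 0 in WT cells, at 0.45 in KO and 0.18 in WT cells.

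**Figure D3:**
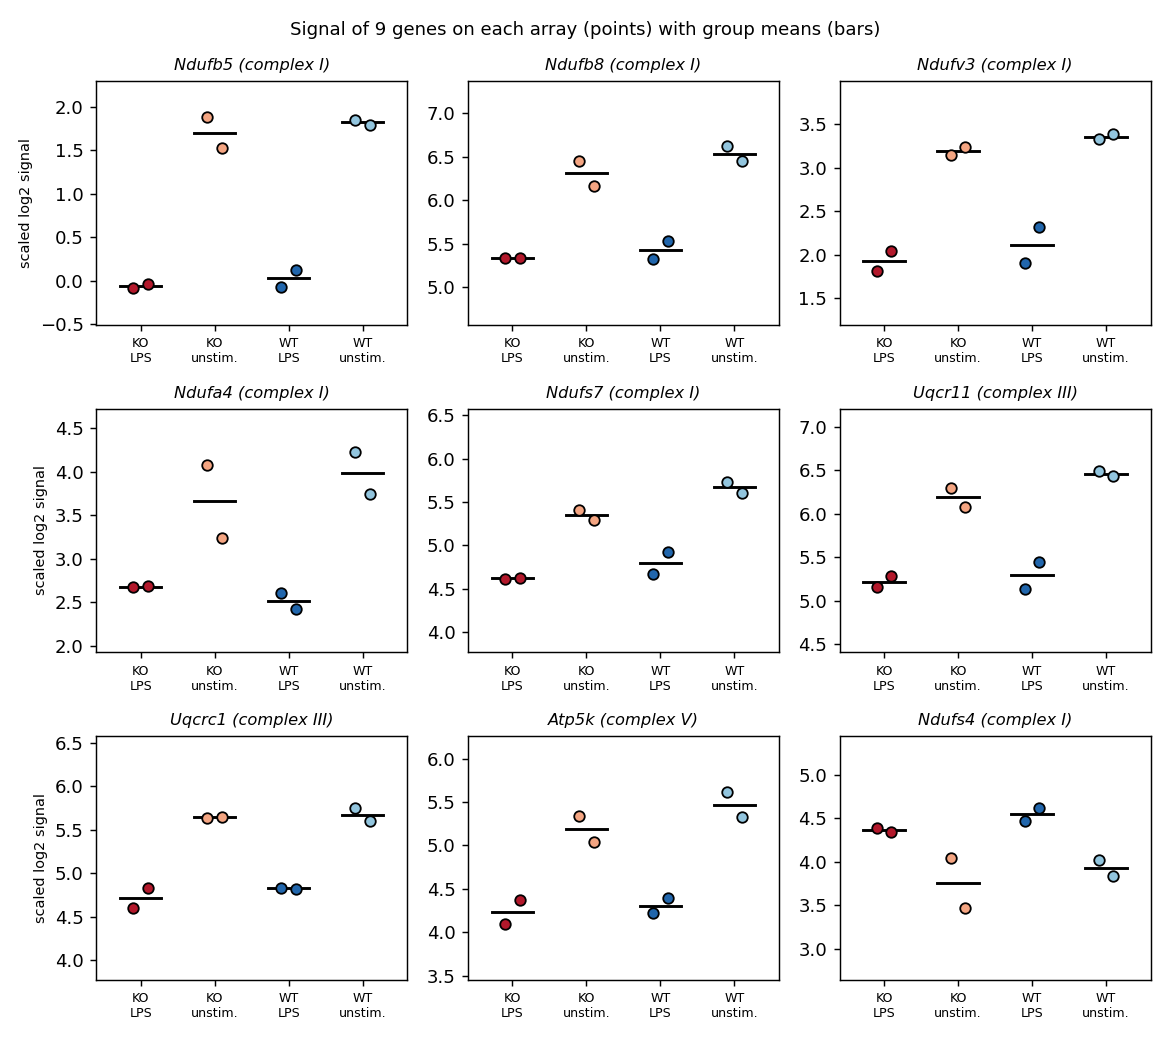
Scaled log2 signal of 9 genes on each array (points) with group means (bars), in KO LPS, KO unstimulated, WT LPS and WT unstimulated cells, each panel with its own axis of the same unit. In the 8 panels from Ndufb5 to Atp5k the LPS arrays are below the unstimulated arrays of the same genotype, and in the panel of Ndufs4 they are above.

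Complex II, succinate dehydrogenase, had 4 genes, 0 calls and medians of −0.61 in KO and −0.77 in WT cells. In both genotypes both LPS arrays lay below both unstimulated arrays for all 4 genes. Of all genes, 30.4% did so in KO and 32% in WT cells. The flavoprotein Sdha had 2.26 and 2.38 in KO LPS cells, against 2.72 and 3.0 in KO unstimulated cells, and 2.19 and 2.42 in WT LPS cells, against 2.93 and 2.55 in WT unstimulated cells. The change of Sdha was −0.54 in KO and −0.43 in WT cells. Its 3 probes did not share a sign in WT cells (−0.57 to 0.17), while all were below 0 in KO cells (−0.75 to −0.065). The iron-sulphur subunit Sdhb changed by −0.39 in KO and −0.76 in WT cells. The membrane anchors Sdhc and Sdhd changed by −0.73 and −0.68 in KO cells and by −0.81 and −0.78 in WT cells.

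Complex III, the cytochrome bc1 complex, had 2 of 8 genes called lower in each genotype, with medians of −0.29 in KO and −0.44 in WT cells. Uqcr11, a small accessory subunit, had 5.16 and 5.28 in KO LPS cells, against 6.29 and 6.08 in KO unstimulated cells, and 5.13 and 5.45 in WT LPS cells, against 6.49 and 6.44 in WT unstimulated cells. It fell by 0.97 in KO cells (limma adjusted p = 0.0367) and by 1.17 in WT cells (0.0201). Uqcrc1, a core subunit on the matrix side, had 4.60 and 4.83 in KO LPS cells, against 5.63 and 5.65 in KO unstimulated cells, and 4.83 and 4.81 in WT LPS cells, against 5.74 and 5.60 in WT unstimulated cells. It fell by 0.93 in KO cells (limma adjusted p = 0.0353) and by 0.85 in WT cells (0.0476). With each probe tested on its own, both Uqcrc1 probes were called in KO cells and neither in WT cells. For both genes all 4 LPS arrays lay below all 4 unstimulated arrays. The other core subunit, Uqcrc2, changed by −0.11 in KO and −0.16 in WT cells. The Rieske iron-sulphur protein Uqcrfs1, which hands electrons to cytochrome c1, changed by 0.57 in KO and 0.15 in WT cells, with no call and with a value in WT cells of −0.01 when slide was a block.

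Complex IV, cytochrome c oxidase, had by name 0 of 14 genes called in either genotype, with medians of −0.30 in KO and −0.50 in WT cells. Ndufa4, since assigned to complex IV but counted by name with complex I, was called lower in WT cells. The nuclear subunits closest to its catalytic core, Cox4i1, Cox5a and Cox5b, changed by −0.67, −0.15 and −0.34 in KO cells and by −0.83, −0.30 and −0.53 in WT cells. Cox4i1 had 6.68 and 7.04 in KO LPS cells, against 7.40 and 7.65 in KO unstimulated cells, and 6.82 and 7.22 in WT LPS cells, against 7.61 and 8.10 in WT unstimulated cells. Its groups did not overlap in either genotype, and it was not called.

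Several complex IV subunits have isoforms with tissue-restricted use. The muscle isoform Cox6a2 had −1.05 and −2.10 in KO LPS cells, against −1.98 and −2.84 in KO unstimulated cells, and −1.60 and −1.75 in WT LPS cells, against −2.05 and −3.18 in WT unstimulated cells. The LPS arrays lay above the unstimulated arrays in WT cells, and the ranges overlapped in KO cells. The change of Cox6a2 was 0.83 in KO cells (limma adjusted p = 0.318) and 0.94 in WT cells (0.258), the highest of all members in both genotypes. The common isoform Cox6a1 changed by 0.11 in KO and −0.20 in WT cells. The muscle isoform Cox7a1 had −1.19 and 0.38 in KO LPS cells, against 0.57 and 0.61 in KO unstimulated cells, and −0.91 and −0.16 in WT LPS cells, against 1.08 and 0.72 in WT unstimulated cells. Its replicates after LPS were far apart, and the change was −1.0 in KO cells (limma adjusted p = 0.238) and −1.44 in WT cells (0.105), though the gene was called in WT cells when either KO LPS array was left out of the fit. Cox7a2 changed by 0.12 in KO and −0.12 in WT cells. Cox7a2l, a factor that joins complexes III and IV, changed by −0.61 in KO and −0.76 in WT cells. Its unstimulated replicates were 4.02 and 5.08 in KO and 4.20 and 5.48 in WT cells, and without replicate 2 of the unstimulated group the change was −0.084 in KO and −0.12 in WT cells.

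Cox6b1 changed by −0.27 in KO and −0.60 in WT cells and the testis isoform Cox6b2 by −0.87 and −0.96. In the KO unstimulated group the Cox6b2 replicates were −2.04 and 0.23, so the KO value rested on 1 array, and without WT unstimulated replicate 2 the WT change was −0.35. Cox7b changed by −0.55 in KO and −0.69 in WT cells, Cox8a by −0.52 and −0.46, and Cox7c by 0.40 and 0.15. Cox4i2, Cox7b2, Cox8b and Cox8c did not pass the filter. Of these, Cox4i2, Cox8b and Cox8c were not well above background on any array. Cox7b2 was well above background on KO LPS replicate 1 alone, so its level elsewhere has only an upper bound.

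Complex V, the ATP synthase, had 3 of 15 genes called lower in each genotype, with medians of −0.56 in KO and −0.69 in WT cells. The catalytic head contributed none: Atp5a1 and Atp5b, its alpha and beta subunits, changed by −0.13 and 0.07 in KO cells and by −0.31 and −0.11 in WT cells. Atp5c1, the gamma subunit of the central stalk, changed by −0.46 in KO and −0.69 in WT cells. Atp5d, the delta subunit of the same stalk, had 4.32 and 4.34 in KO LPS cells, against 5.12 and 5.36 in KO unstimulated cells, and 4.39 and 4.61 in WT LPS cells, against 5.25 and 5.33 in WT unstimulated cells. The change of Atp5d was −0.91 in KO cells (limma adjusted p = 0.0415) and −0.79 in WT cells (0.0641). Atp5o, the peripheral stalk subunit that confers oligomycin sensitivity, had 5.41 and 5.54 in KO LPS cells, against 6.48 and 6.17 in KO unstimulated cells, and 5.35 and 5.51 in WT LPS cells, against 6.47 and 6.27 in WT unstimulated cells. Its change was −0.86 in KO cells (limma adjusted p = 0.0553) and −0.94 in WT cells (0.0425), with no overlap in either genotype.

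Atp5g1, Atp5g2 and Atp5g3 encode the same c subunit, whose ring turns in the membrane. Atp5g2 had 5.25 and 5.20 in KO LPS cells, against 6.01 and 6.42 in KO unstimulated cells, and 5.21 and 5.51 in WT LPS cells, against 6.37 and 6.66 in WT unstimulated cells. It fell by 0.99 in KO cells (limma adjusted p = 0.0464) and by 1.15 in WT cells (0.0293), while its second probe, at −1.08 in KO and −1.11 in WT cells, was not called. Atp5g1 changed by −1.03 in KO and −1.01 in WT cells without a call. Its unstimulated replicates were 5.30 and 4.66 in KO and 5.50 and 4.60 in WT cells. Atp5g3 changed by −0.61 in KO and −0.63 in WT cells.

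Atp5k, subunit e of the membrane domain, had 4.10 and 4.37 in KO LPS cells, against 5.34 and 5.04 in KO unstimulated cells, and 4.22 and 4.40 in WT LPS cells, against 5.61 and 5.33 in WT unstimulated cells. It fell by 0.95 in KO cells (limma adjusted p = 0.0469) and by 1.16 in WT cells (0.0247). The files place its probe at Y:1599764-1599823 of mm9, on the minus strand, while RefSeq has Atp5k on chromosome 5, and it was the only member whose chromosomes differed. Whether the probe reads the chromosome 5 gene, a copy or both cannot be said from the files. The first 30 bases of that probe are shown.
Atp5k probe at chrY:1599764-1599823: cggcgccaagcgctacagttacctaaaacc

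The 7 tested genes that the name rule took but that encode no subunit gave 0 calls, with medians of −0.04 in KO and −0.30 in WT cells. Ndufaf1, Ndufaf2, Ndufaf3 and Ndufaf4, assembly factors of complex I, changed by 0.17, −0.04, 0.34 and −0.95 in KO cells and by 0.11, −0.30, 0.29 and −0.87 in WT cells. Ndufaf4 had 3.09 and 1.54 in the KO unstimulated and 2.92 and 1.62 in the WT unstimulated replicates, so its change rested on 1 array of each. Cox4nb, a neighbour of Cox4i1 now named Emc8, changed by −0.22 in KO and −0.38 in WT cells. Atp5s and Atp5sl, now Dmac2l and Dmac2, changed by 0.03 and −0.97 in KO cells and by −0.21 and −1.06 in WT cells. Without replicate 2 of the unstimulated group the change of Atp5sl was −0.25 in KO and −0.63 in WT cells. Of the 27 members with several tested probes, 6 had probes of opposite fitted sign in at least 1 genotype (Atp5b, Atp5s, Atp5sl, Ndufv2, Sdha and Uqcrq), and 0 had probes called in opposite directions.

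The median deviation of the 85 genes from their own means over the 8 arrays gave a level for each array. It was −0.33 and −0.29 in KO LPS cells, against 0.29 and 0.05 in KO unstimulated cells, and −0.36 and −0.16 in WT LPS cells, against 0.39 and 0.31 in WT unstimulated cells. The LPS arrays were thus lower than all unstimulated arrays, but KO unstimulated replicate 2 lay between the others and the LPS arrays. For complex III it stood at −0.10, below WT LPS replicate 2 at −0.02, and for complex IV it stood at 0.001. The genes that encode no subunit did not separate the states on these arrays, with −0.26 and −0.05 in KO LPS cells, against −0.01 and −0.16 in KO unstimulated cells.

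**Figure D4:**
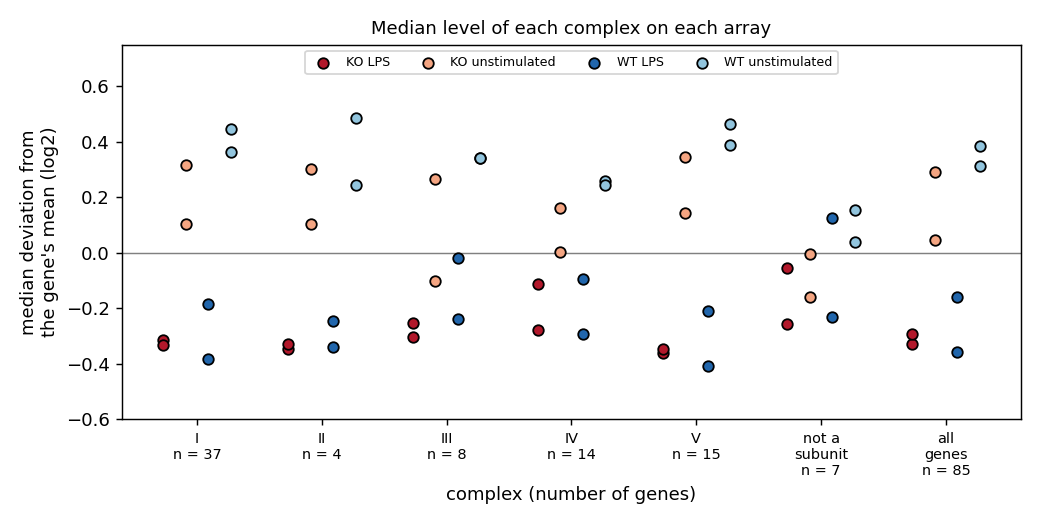
Median deviation from the gene means (scaled log2 units) of the genes of each complex, of the genes that encode no subunit and of all 85 genes, on each array of KO LPS, KO unstimulated, WT LPS and WT unstimulated cells. In complexes I, II, IV and V all LPS arrays are below all unstimulated arrays, and in complex III KO unstimulated replicate 2 reaches the LPS arrays.

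Other genes of the pathway were taken from lists of assembly factors, regulators, carriers and inhibitors. Their counts stand beside 10.4% of all genes called higher and 10.5% lower in KO cells, and 9.48% and 10.7% in WT cells. Lists this short were described and not tested against those shares. Of 23 assembly factors measured, 2 rose and 2 fell in KO cells, and 1 rose and 3 fell in WT cells. Sco1, a copper chaperone of complex IV, rose by 1.46 in KO and 1.58 in WT cells. Bcs1l, which inserts the Rieske protein into complex III, changed by −1.61 in KO and −1.57 in WT cells, and Nubpl, which delivers iron-sulphur clusters to complex I, by −0.98 and −1.39, all called. Tmem70, needed for ATP synthase assembly, rose by 1.21 in KO cells and changed by 0.66 in WT cells with no call. Atpaf1, another ATP synthase assembly factor, fell by 1.26 in WT cells and changed by −0.88 in KO cells with no call.

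Of 15 measured regulators of mitochondrial biogenesis and mitochondrial DNA, 0 rose and 3 fell in each genotype, where 10.5% of all genes fell in KO and 10.7% in WT cells. Ppargc1b, a coactivator of respiratory genes, fell by 3.12 in KO and 2.75 in WT cells. Polg2, the accessory subunit of the mitochondrial DNA polymerase, fell by 2.11 in KO and 2.46 in WT cells, and Peo1, the mitochondrial helicase Twinkle, fell by 1.14 and 1.42. Of 8 carriers and coupling genes, 2 fell in KO and 3 in WT cells. The uncoupling protein family member Ucp2 fell by 2.40 in KO and 1.97 in WT cells, and the adenine nucleotide translocator Slc25a5 by 1.20 and 1.14. Vdac1, a channel of the outer membrane, fell by 1.0 in WT cells and changed by −0.74 in KO cells. Neither cytochrome c nor cytochrome c1 was called: Cycs changed by 1.02 in KO and 1.09 in WT cells, and Cyc1 by −0.81 and −0.92. For Cycs the unstimulated replicates were 5.36 and 3.76 in KO and 5.34 and 3.88 in WT cells, so its values rested on 1 array of each group.

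Of 7 genes that inhibit respiration or mark hypoxia, 4 rose and 1 fell in each genotype. Nos2, which makes the nitric oxide that blocks complex IV, was not well above background on any unstimulated array and was at least 30.5-fold higher after LPS in KO and at least 25.2-fold higher in WT cells. Irg1, whose product itaconate inhibits complex II, rose by 7.24 in KO and 6.43 in WT cells on the log2 scale. Hif1a, the hypoxia factor, rose by 1.37 in KO and 1.43 in WT cells, and the haem oxygenase Hmox1 by 2.36 and 2.10. Epas1, the related hypoxia factor, fell by 3.78 in KO and 4.19 in WT cells, where it was well above background on 1 of the 2 WT LPS arrays.

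Markers of cell types and of division moved with the LPS comparisons. Signals of each list were summed in multiples of the array's 75th percentile. Counts of marker genes that rose or fell stand beside 10.4% of all genes called higher and 10.5% lower in KO cells, and 9.48% and 10.7% in WT cells. Dividing-cell genes summed to 20.3 to 22.1 in KO LPS cells, against 32.7 to 69.1 in KO unstimulated cells, and 9.93 to 16.1 in WT LPS cells, against 53.0 to 62.4 in WT unstimulated cells, and 6 of 8 fell in each genotype (Top2a, Aurkb, Ccnb1, Cdk1, Plk1 and Birc5). Mki67 went the other way in KO cells without a call. It had 3.89 and 3.88 in KO LPS cells, against 3.05 and 3.32 in KO unstimulated cells. The dividing-cell sums in KO LPS cells came mostly from Mki67, with Bub1 next at 2.07 and 2.27. They therefore say little of the 6 genes that fell. Monocyte genes summed to 4.07 to 10.4 in KO LPS cells, against 49.1 to 61.8 in KO unstimulated cells, and 7.29 to 9.33 in WT LPS cells, against 31.5 to 70.7 in WT unstimulated cells, and 3 of 4 fell (Ccr2, F13a1 and Fn1). Ly6c1 went the other way, at 1.38 in KO and 0.57 in WT cells, with no call. F13a1 was well above background on 1 of 2 KO LPS arrays and on no WT LPS array. It passed the filter only through unstimulated cells. Macrophage genes summed to 165 to 337 in KO LPS cells, against 168 to 209 in KO unstimulated cells, and 255 to 274 in WT LPS cells, against 159 to 233 in WT unstimulated cells. Of these 8 genes, 4 fell in each genotype (C1qa, C1qb, Mrc1 and Cd163) and 1 rose, Emr1 in KO and Fcgr1 in WT cells. Cd163 was not well above background on any LPS array and passed the filter only through unstimulated cells. DC genes summed to 1252 to 1402 in KO LPS cells, against 1081 to 1246 in KO unstimulated cells, and 1028 to 1431 in WT LPS cells, against 948 to 1304 in WT unstimulated cells, and 2 of 8 rose, Ccr7 and Cd86. These sums came mostly from H2-Ab1, Cd74, Itgax and H2-Aa, with scaled log2 signals of 6.28 or more on every array. All 8 DC genes were well above background on all arrays, but Flt3, a receptor of DC precursors, was at −4.78 to −1.77 and Zbtb46, a transcription factor of classical DC, at −2.05 to 0.59.

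Of 4 stromal genes, 3 rose (Dcn, Lum and Pdgfrb). Stromal sums were 2.20 to 12.3 in KO LPS cells, against 0.134 to 0.138 in KO unstimulated cells. In WT cells they were 2.25 to 6.01 after LPS, against 0.144 to 0.195 unstimulated. Dcn and Lum were not well above background on any unstimulated array and passed the filter only through LPS cells, which favoured a rise. Pdgfrb was well above background on 2 KO and 1 WT unstimulated arrays. Col1a1 did not pass. Of 4 basophil and mast cell genes, 3 fell in each genotype (Mcpt8, Prss34 and Cpa3), and of 2 eosinophil genes, 1 fell in KO (Siglec5) and 2 in WT cells (Siglec5 and Prg2). Mcpt8, Cpa3 and Prg2 were not well above background on any LPS array, and Prss34 was on 1 of 2 KO LPS arrays only. Mcpt8, Cpa3, Prg2 and Prss34 passed the filter only through unstimulated cells. The filter thus favoured a fall, and these counts carry little information. Ms4a2 and Epx did not pass. The sums of both lists were 3.23 or less on every array. Of 5 neutrophil genes, Camp rose in both genotypes and Ltf fell in KO cells, with sums of 4.59 to 10.1 over all arrays. Lck of the T cell list rose and Klrb1c of the NK list fell in both genotypes, both at sums under 1. Camp and Lck were not well above background on any unstimulated array, Klrb1c on any LPS array or Ltf on any KO LPS array. Each of these 4 genes passed the filter only through groups where it was higher, so the filter shaped these changes too. Erythroid genes gave no call. Their sums were 6.16 in KO LPS and 7.60 in WT LPS cells on replicate 1, but 0.29 and 0.16 on replicate 2. Hbb-b1 was at 2.58 and 2.90 on replicate 1 and at −2.22 and −3.57 on replicate 2. The part of any of these in the LPS values of the respiratory genes was not tested.

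The question of the genotype comparisons is whether miR-155 bears on the chain in either state. No respiratory chain or ATP synthase gene was called between KO and WT cells. In unstimulated cells 0 of 85 were called, where 0.24% of all genes were, and 0 of 85 had an unadjusted p under 0.05. The fitted difference, KO minus WT, was below 0 for 79 genes (92.9%), against 56.5% of all genes. The median was −0.20 where all genes had −0.05, and 29 genes (34.1%) had both KO arrays below both WT arrays, against 13.1% of all genes. The size of this shift depended on the arrays and on the scaling: without KO unstimulated replicate 2 it was −0.06 with 53 genes below 0, without KO unstimulated replicate 1 it was −0.36, and under quantile normalization it was −0.05. It was −0.06 with normexp, −0.19 with array-median scaling, −0.20 in the deposited table and −0.24 with slide as a fixed block. KO unstimulated replicate 2 was on slide 1 with both WT unstimulated arrays and replicate 1 on slide 2. Replicate and slide therefore cannot be told apart here.

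The 3 genes with the smallest p in unstimulated cells were Sdhb, Atp5l and Ndufb11. Sdhb had 4.85 and 4.84 in KO unstimulated cells, against 5.14 and 5.43 in WT unstimulated cells. The KO arrays lay below the WT arrays, and the difference was −0.44 with a 95% interval of −1.06 to 0.18 (limma adjusted p = 1). Atp5l, subunit g of the ATP synthase membrane domain, had 6.25 and 6.16 in KO unstimulated cells, against 6.50 and 6.67 in WT unstimulated cells, a difference of −0.38. For Ndufb11 the difference was −0.43 with a 95% interval of −1.16 to 0.30. Over the 85 genes the interval, not adjusted for the number of genes, reached 0.66 log2 units to either side at the median and 1.76 at the widest.

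After LPS 0 of 85 genes were called between KO and WT cells, where 0.026% of all genes were. The fitted difference was below 0 for 58 genes (68.2%), against 51.1% of all genes, with a median of −0.07, where all genes had −0.01. Both KO arrays lay below both WT arrays for 10 genes (11.8%), against 9.88% of all genes, a share near the background. Ndufb7, an accessory subunit of the complex I membrane arm, had 5.33 and 5.29 in KO LPS cells, against 5.42 and 5.81 in WT LPS cells. The difference was −0.31 with a 95% interval of −0.91 to 0.30. Cox7c had 3.24 and 3.32 in KO LPS cells, against 3.18 and 2.56 in WT LPS cells, a difference of 0.41 with a 95% interval of −0.68 to 1.50, and −0.08 with slide as a block. Atp5l differed by −0.21.

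**Figure D5:**
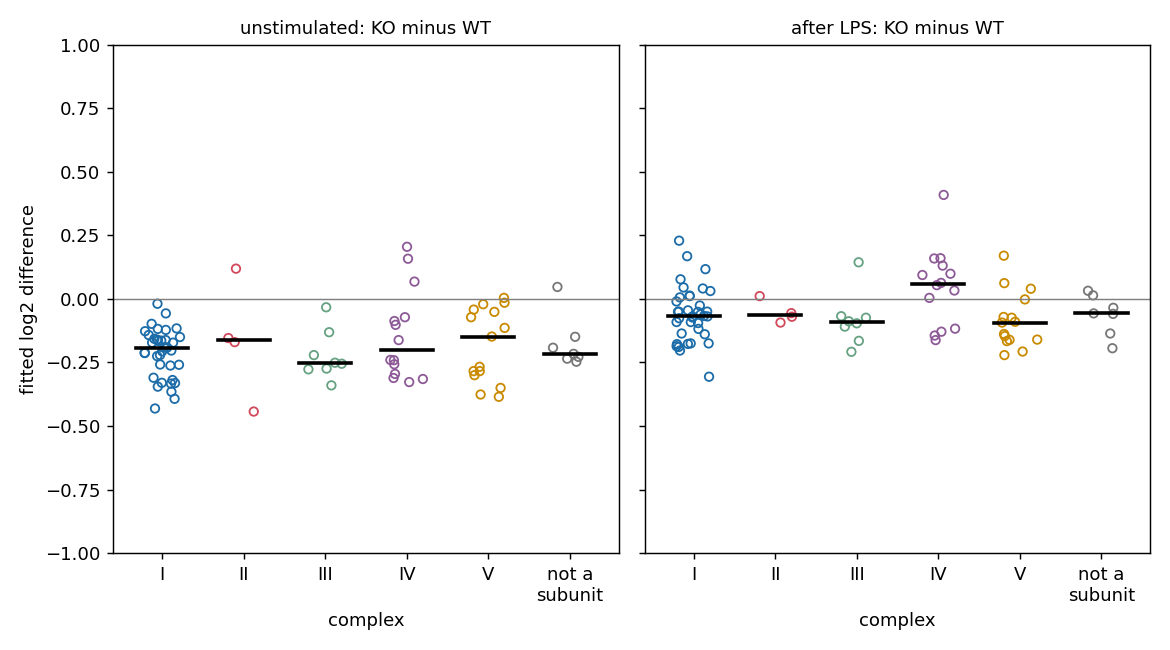
Fitted log2 difference, KO minus WT, of each tested gene in unstimulated cells (left) and after LPS (right), by complex, with medians as bars and no gene called. In unstimulated cells all 37 complex I genes lie below 0, with a median of −0.19, and after LPS 27 of them do, with a median of −0.07. Of all genes, 56.5% lie below 0 in unstimulated cells and 51.1% after LPS. In unstimulated cells the median of the 85 genes was −0.06 without KO unstimulated replicate 2. Under quantile normalization it was −0.05.

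The difference of the LPS responses, KO minus WT, was tested as an interaction. It was called for 0 of 85 genes, where 0.0455% of all genes were, and 0 had an unadjusted p under 0.05. Of the 85 genes, 12 were fitted below 0 (14.1%), against 43.1% of all genes. The median difference was 0.15, where all genes had 0.05, but without KO unstimulated replicate 2 the median was 0.01. It was 0.28 without KO unstimulated replicate 1 and 0.15 with slide as a fixed block. Ndufb11, Sdhb and Ndufa4 had the smallest p. Ndufb11 differed by 0.51 with a 95% interval of −0.52 to 1.54, Sdhb by 0.37 and Ndufa4 by 0.50 with a 95% interval of −0.68 to 1.68. For Ndufb5, the gene with the lowest response in both genotypes, the difference was 0.03 with a 95% interval of −0.82 to 0.88.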

How the data were processed

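RNA of 8 sorted DC samples was measured on single-colour Agilent arrays with 60-base probes. Per the file headers, scans were extracted with Agilent Feature Extraction 10.5.1.1 against mm9, which gave the deposited intensity of each spot, background-subtracted and with no scaling across arrays. Flags for detection, saturation and outlying spots were deposited as 0 or 1, an other unit. The deposited series table holds log2 values and differed from log2 of those signals by 1 constant per array. Outlying spots, 120 to 174 of 45018 per array, were left out. The log2 signal minus each array's 75th percentile was averaged over the spots of a probe. A probe was kept if some group had it well above background on each of its 2 arrays, and the brightest stood for its gene, which left 23739 probes and 15401 genes, 48 of them with a missing value and none of those a member.

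A model with 4 group means was fitted to all genes with limma 3.58.1 in R 4.3.3, with 4 residual and 2.88 prior degrees of freedom. Adjusted p-values are Benjamini-Hochberg values over all genes of a comparison, two-sided, with calls under 0.05. Errors are standard errors (n = 2 arrays per group), and the number of arrays limits the precision. On simulated data for the LPS response of WT, with 15353 genes of which 200 were changed, log2 changes of 1, 2, 3 and 4 were called for 0%, 44%, 78% and 96%, with 5 false calls. In the measured data 1460 genes were called higher and 1646 lower in that comparison, so the adjustment was less strict there. The simulated shares therefore do not give how often a change of that size is called in these data. For a gene not well above background in a group, a fold is a lower bound against, per array, the gene's own signal or the lowest detected signal, whichever was higher.

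The members and lists were chosen with earlier results of these data known. Named genes were the core subunits, isoform groups, extremes of each complex, called members, the 3 smallest p where none was called, members with discordant probes, dim members, members that are no subunit, and called genes of the other lists. Alternatives covered scaling, background correction, the filter, the probe rule, slide, replicate block, moderation and left-out arrays. RefSeq promoter windows were matched by accession. Single values of a few genes are not reported here.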

Additional observations from a re-analysis of the deposited data

How the results depend on the processing

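For the calls after LPS, 9 in KO and 12 in WT cells, normexp with quantile normalization gave 28 and 31 (all genes called lower, 10.9% and 10.5%), quantile normalization 15 and 18 (11.7% and 11.3%), no filter 2 and 7 (4.52% and 4.99%), slide as a fixed block 2 and 2 (7.03% and 7.05%), and only the 4 arrays compared 2 and 2 (8.19% and 8.44%). Slide 2 alone gave 0 in KO cells and slide 1 alone 0 in WT cells, with a lone array in 1 group and 0% and 4.49% of all genes called lower, so the KO count carries no information on the members. Leaving out 1 array gave 1 to 5 in KO and 1 to 8 in WT cells. Without KO LPS replicate 2 the isoform Cox7b2 passed the filter through KO LPS replicate 1, the only array where it was well above background. It was then called higher in KO cells, with a change of 3.10. The array that let Cox7b2 into that fit was also its lone KO LPS array, so the call carries no information on its response. A replicate block gave 13 in KO and 19 in WT cells, adding Atp5g1, Atp5o, Ndufa4 and Ndufs8 in KO and Atp5d, Atp5g1, Atp5j2, Cox4i1, Ndufb2, Ndufs8 and Ndufv1 in WT cells. Same-numbered arrays deviated together with correlations of 0.0131 to 0.692, over 0.1 in 5 of 6 pairs of groups and not in that of KO LPS with WT unstimulated cells, and the labels tie no number to an animal or day, so the numbers were not taken to pair the samples. Between genotypes and for the difference of responses 0 members were called under every alternative run. Scaling by the array median put the median of all genes at −0.12 in KO and −0.09 in WT cells, and dropping the filter put it at 0.12 and −0.36.

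The medians of all 5 complexes stayed below 0 under every alternative. In KO cells quantile normalization, array-median scaling and normexp gave −0.70, −0.71 and −0.66 for complex I, −0.76, −0.78 and −0.75 for II, −0.49, −0.46 and −0.45 for III, −0.48, −0.47 and −0.48 for IV, and −0.77, −0.72 and −0.77 for V. Slide 2 alone gave −0.69 for I, −0.45 for III and −0.78 for V, single probes −0.47 for III, and no filter −0.059 for IV. With 1 array left out the ranges were −0.69 to −0.42, −0.64 to −0.49, −0.45 to −0.16 and −0.78 to −0.46 for I, II, III and V. In WT cells normexp gave −0.90 for II and −0.83 for V, slide 1 alone −0.24 for III, −0.30 for IV and −0.54 for V, the slide block −0.38 for IV and single probes −0.55 for V. With 1 array left out the ranges were −0.81 to −0.60, −0.78 to −0.58, −0.59 to −0.24, −0.58 to −0.30 and −0.89 to −0.54 for I to V.

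Of 2524 recomputed values of single genes, 2240 kept direction and call, 193 lost a call, 45 gained one and 46, in 12 genes, changed sign, 0 of them with a call. In KO cells Atp5b turned to −0.11 (quantile), −0.094 (array median), −0.059 (normexp), −0.27 (mean of probes), −0.16 (slide block) and −0.27 (slide 2), Cox6a1 to −0.16, −0.06, −0.056 and, on slide 2, −0.091, Cox7a2 to −0.10, −0.045, −0.12, with the slide block −0.12 and on slide 2 −0.31, Atp5s to −0.14 (array median), −0.034 (detected probes), −0.06 (slide block) and −0.33 (slide 2), Cox7c to −0.10 and −0.28 in the last 2 settings, and Cox6b2 to 0.27 on slide 2. In WT cells Uqcrfs1 turned to −0.011 and Cox7c to −0.35 with the slide block, Cox7c to −0.16 on slide 1 and Ndufaf1 to −0.001 under normexp. Cox7c between genotypes after LPS turned to −0.082 with the slide block. With 1 array left out the ranges crossed 0 in KO cells for Uqcrc2 (−0.29 to 0.06), Cox5a (−0.38 to 0.094), Atp5a1 (−0.47 to 0.21), Atp5b (−0.27 to 0.42), Cox6a1 (−0.091 to 0.31), Cox6b2 (−2.00 to 0.27), Cox7a2 (−0.31 to 0.55), Cox7c (−0.28 to 1.07), Atp5s (−0.33 to 0.39) and Ndufaf2 (−0.41 to 0.34), and in WT cells for Atp5b (−0.24 to 0.014), Cox7a2 (−0.24 to 0.001), Cox7c (−0.16 to 0.45) and Ndufaf2 (−0.66 to 0.055). The cause of these changes was not tested.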
